A study of Mus musculus with 2 samples.

Results

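Mir139 is the mouse gene of the microRNA miR-139, a small RNA that pairs with messenger RNAs and lowers their stability and translation. It is 1 of 2202 miRNA genes counted in the adrenal glands of male B6CASTF1/J mice, an F1 hybrid, aged 10 days. The gene was taken as the row whose Ensembl identifier, ENSMUSG00000065446.1, carries the symbol Mir139 in GENCODE release M21, and it was chosen by its high count and rank in these same libraries. Its level and rank are therefore given as a description, with no test. The series held 1 group of 2 libraries of short RNA fragments, numbered in the labels as biological replicates 1 and 2 and drawn from males numbered 04 (replicate 2) and 03 (replicate 1) under a shared donor record, with no other condition. Whether glands were pooled is not stated in the labels.

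Most animal miRNAs are cut from a hairpin in a longer transcript by Drosha and then Dicer, and either arm of the hairpin can be loaded into an Argonaute protein. Bases 2 to 8 of the loaded strand, the seed, do most of the target recognition. Many miRNA genes lie inside an intron of a protein-coding gene and can be processed from the transcript of that host. The host of Mir139 is Pde2a, which encodes a phosphodiesterase that degrades cyclic AMP and cyclic GMP and is itself stimulated by cyclic GMP. In the outer zone of the adrenal cortex this enzyme is known as a link between atrial natriuretic peptide, cyclic GMP and lower aldosterone secretion. In human adrenocortical carcinoma miR-139-5p has been associated with aggressive disease, while in several other tumours it is described as a tumour suppressor.

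The sequences of the hairpin and of both mature arms are shown because the files count the gene as a whole and do not say which arm a read came from. They are from RefSeq on the GRCm38.p6 build, written 5′ to 3′, and capitals mark the seed of each arm.
Mir139 hairpin: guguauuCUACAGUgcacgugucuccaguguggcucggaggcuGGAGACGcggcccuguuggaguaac
miR-139-5p: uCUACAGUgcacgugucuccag
miR-139-3p: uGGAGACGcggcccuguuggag
The 5p arm lies at chr7:101475382-101475403 and the 3p arm at chr7:101475418-101475439, both on the plus strand. The 5p arm spans bases 7 to 28 of the 68-base hairpin and the 3p arm bases 43 to 64, with 14 bases between them. In the minimum free energy structure given by RNAfold the arms shared 19 base pairs. That pairing took in 6 of 7 seed bases of the 5p arm and 7 of 7 of the 3p arm. The folding energy was -35.6 kcal/mol, or -0.52 per base, against a median of -0.43 per base over 374 hairpins with at least 1 CPM in both libraries, of which 14.2% folded more stably per base. The hairpin was also richer in G and C than most of these, at 58.8% against a median of 51.1%.

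Neither seed was shared with another mature miRNA among 1738 entries of the RefSeq table, where 86.6% of 1398 seeds occurred under a single name. Mir139 thus stands alone in this table, without a family of paralogs that share its seed. The 6 bases from position 2 to 7 of the 3p arm recurred in 1 entry, miR-6397, and those of the 5p arm in 0. The longest run of bases that the hairpin shared with any of 1004 other hairpins, on either strand, was 11, with Mir6352. Both arms were found in 1 gene, Mir139 itself, among 141767 annotated transcripts on either strand. The files keep reads with several map positions apart from the gene rows, and matches elsewhere in the genome were not analysed here.

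On the mm10 build Mir139 lies at chr7:101475376-101475443 on the plus strand, inside Pde2a (ENSMUSG00000110195.1), which spans chr7:101421691-101512827 on the same strand. It fell in an intron of 10 of 12 annotated Pde2a transcripts, and the other 2 are short models that start downstream of it. In 6 of these 10 it was the second intron, in 2 the first and in 2 the third. The intron was 29902 bp long in the protein-coding models and 19829 bp, the shortest, where an additional exon lies between the second exon of those models and Mir139. In all 10 the next exon began 5927 bp downstream of the hairpin. A second annotated gene, Gm45837 (ENSMUSG00000030653.17), shares the Pde2a exons around Mir139, starts farther upstream and holds Mir139 in intron 3. No annotated gene overlapped Mir139 on the minus strand. The nearest other counted miRNA gene, Gm22655, was 405740 bp away, so Mir139 lies in no miRNA cluster among the genes counted.

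**Figure D1:**
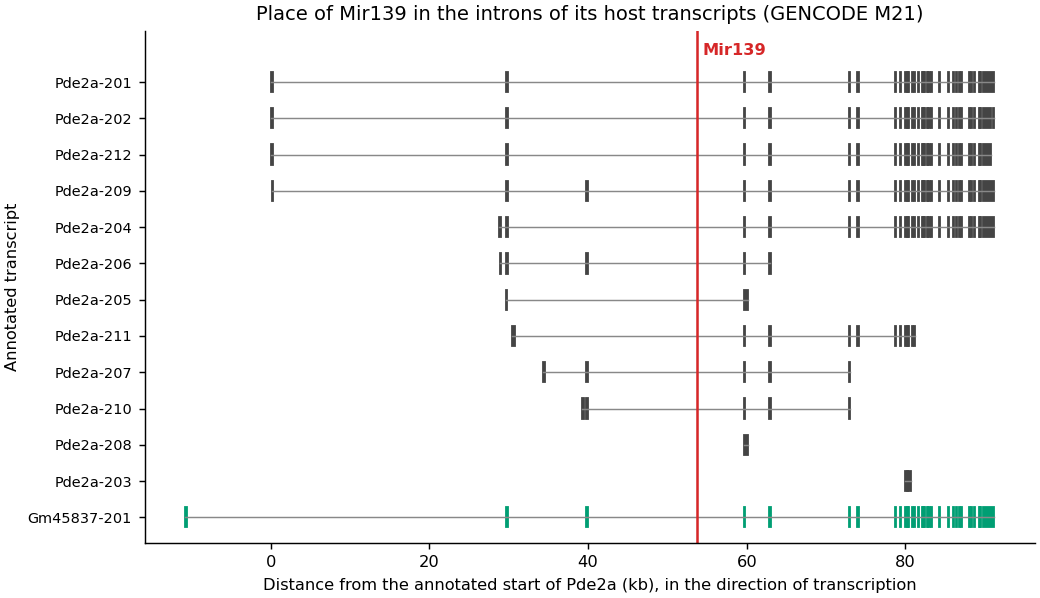
Exons (boxes) and introns (lines) of the 12 annotated Pde2a transcripts in grey and of Gm45837 in green, by distance in kb from the start of Pde2a, with Mir139 as a red line. Mir139 sits in an intron of 10 Pde2a transcripts, 5927 bp before the exon that they share downstream.

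By assigned counts, Mir139 was among the most abundant miRNA genes of both adrenal libraries. On its own strand it had 100633 counts in replicate 2 and 59150 counts in replicate 1, out of 3080062 and 2843734 counts assigned to miRNA genes in these libraries. Scaled to counts per 1000000 counts assigned to miRNA genes (CPM), its level was 32672 CPM in replicate 2 and 20800 CPM in replicate 1, a mean of 26736 ± 8395 CPM (SD, n = 2). Reads of this size span a mature miRNA, so CPM is not divided by gene length. The gene took 3.27% of the assigned counts in replicate 2 (95% Wilson interval 3.25 to 3.29) and 2.08% in replicate 1 (2.06 to 2.10). These intervals cover counting error only, and they are far narrower than the gap between the libraries. About 1 in 30.6 assigned counts of replicate 2 and 1 in 48.1 of replicate 1 came from Mir139.

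The middle of the adrenal miRNA profile lay far lower. Over the 441 genes with at least 1 CPM in both libraries the median of the mean levels was 73.3 CPM, and Mir139 was 365 times above it. Its rank among all genes was 8 in replicate 2 and 15 in replicate 1, and 10 by the mean of both. The libraries are bulk tissue, so a difference in level between them can come from the share of cells of a type or from RNA per cell, and these cannot be told apart.

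The strand of counting left the Mir139 counts untouched. The column without strand listed 100633 counts in replicate 2 and 59150 in replicate 1, the same as the own-strand column, and the opposite-strand column listed 0 in both. At these depths a count of 0 allows an opposite-strand share of up to 0.00298% in replicate 2 and 0.00507% in replicate 1. The CPM without strand was higher, 39208 in replicate 2 and 26303 in replicate 1, because the totals of that column are smaller, at 2566634 and 2248772 counts. Its rank without strand was 6 in replicate 2 and 13 in replicate 1.

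In both libraries 7 genes stood above Mir139 by assigned counts. Mir378a led by mean. It lies in Ppargc1b, a gene of a transcriptional coactivator, and had 90136 CPM in replicate 2 and 83902 CPM in replicate 1. The others were the let-7 genes Mirlet7g, Mirlet7b and Mirlet7i, the endothelial Mir126a, the hepatocyte miRNA gene Mir122 and Mir375, a miRNA gene of endocrine and neuroendocrine cells. Mir375 was the closest of them by mean, at 34383 CPM in replicate 2 and 34145 CPM in replicate 1. Mir139 reached 0.95 of the Mir375 level in replicate 2 and 0.61 of it in replicate 1.

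Another 7 genes changed places with Mir139 between the libraries, and all of them were above it in replicate 1 and below it in replicate 2. These were Mir143, known from smooth muscle, Mir322, Mir10a, Mir23b, Mir335, Mir26b and Mir23a. The gene next above Mir139 by mean, Mir322, had 18855 CPM in replicate 2 and 35458 CPM in replicate 1, the reverse order of Mir139. The gene next below, Mir10a, had 19211 CPM in replicate 2 and 30132 CPM in replicate 1. By mean level, Mirlet7b and Mirlet7i were above Mir139 by more than the combined SD of the libraries. Mir375, Mir143 and Mir322 above it, and Mir10a, Mir22, Mir23b, Mirlet7d and Mir335 below it, did not differ from it beyond that spread. That spread takes the SDs of the compared genes as independent, although they come from the same libraries. The remaining 2187 genes, with Mir22 and Mirlet7d among them, were below Mir139 in both libraries.

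**Figure D2:**
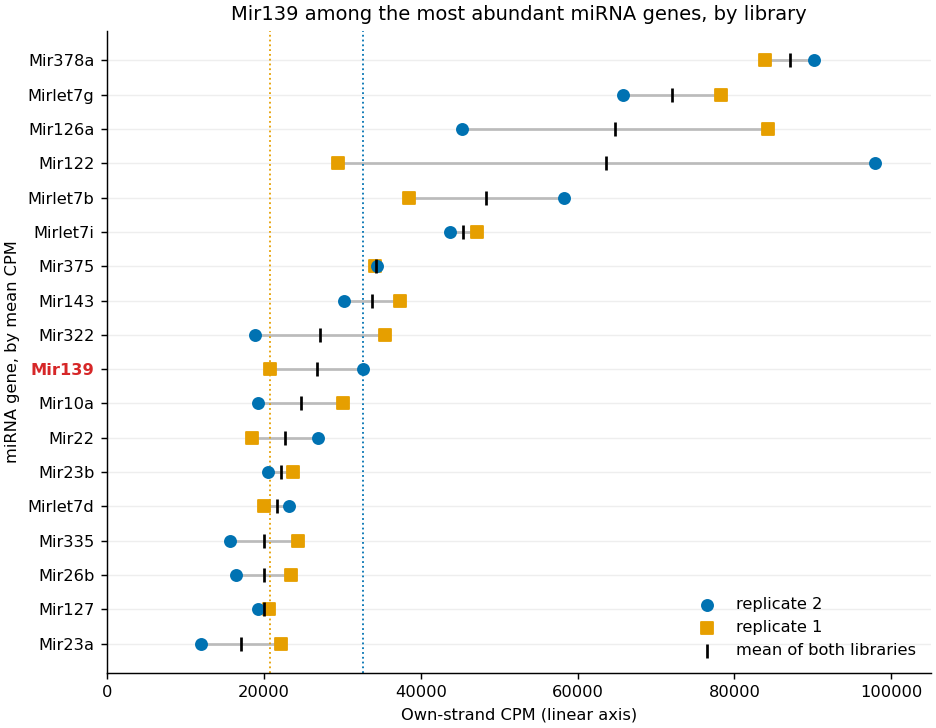
Own-strand CPM in replicate 2 (blue circles) and replicate 1 (orange squares) with the mean (black bars) for Mir139, the 14 genes above it in at least 1 library and other genes near it in level; dotted lines mark the Mir139 level in each library. Mir139 lies at 32672 CPM in replicate 2 and 20800 CPM in replicate 1, while Mir322 and Mir10a beside it are lower in replicate 2.

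The genes closest to Mir139 in level over both libraries were found by the distance between log2(CPM + 1) values, over these 2 samples only. Mir22, a miRNA gene in an exon of Tlcd2 by this annotation, was nearest at a distance of 0.33, with 26923 CPM in replicate 2 and 18535 CPM in replicate 1. It was followed by Mirlet7d (0.49), Mir23b (0.70), Mir375 (0.72) and Mir127 (0.76). Of these 5, Mir22 and Mirlet7d were higher in replicate 2 by the binomial test described next, as Mir139 was, and Mir23b and Mir127 were lower. Mir375 had a log2 ratio of 0.01 and did not pass. Over all tested genes 28.6% were higher in replicate 2 and 30.4% were lower. The 5 genes were chosen by these same values, so their directions are a description and not a test.

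Mir139 was 1.57 times higher in replicate 2 than in replicate 1, a log2 ratio of 0.65 with 0.5 counts added. The exact two-sided binomial test, which sets the difference against counting error only, gave a log10 p of -1704 (upper tail doubled), and the Benjamini-Hochberg adjusted p was too small to be represented as a number. Many genes passed at these depths: 262 of 444 tested genes did (59.0%), 127 of them higher in replicate 2 (28.6% of those tested) and 135 lower (30.4%). The test compares these libraries and not conditions. With the spread between the libraries taken into account, by the exact negative binomial test of edgeR at a common biological coefficient of variation of 0.392, Mir139 had an unadjusted p of 0.478 and an adjusted p of 1. That test called 2 of 444 genes (0.450%) and 24 at an unadjusted p under 0.05, and its spread was estimated from the same 2 libraries.

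Beside the other genes the ratio of Mir139 was of middling size. Among the 257 genes that averaged 100 counts or more, 87 (33.9%) had a larger absolute log2 ratio, and the median absolute ratio was 0.46. In these genes 125 of 257 were higher in replicate 2, 38 of them by more than Mir139. Of the 25 most abundant genes 10 were higher in replicate 2, and Mir122 and Mir21a exceeded Mir139 in that direction.

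**Figure D3:**
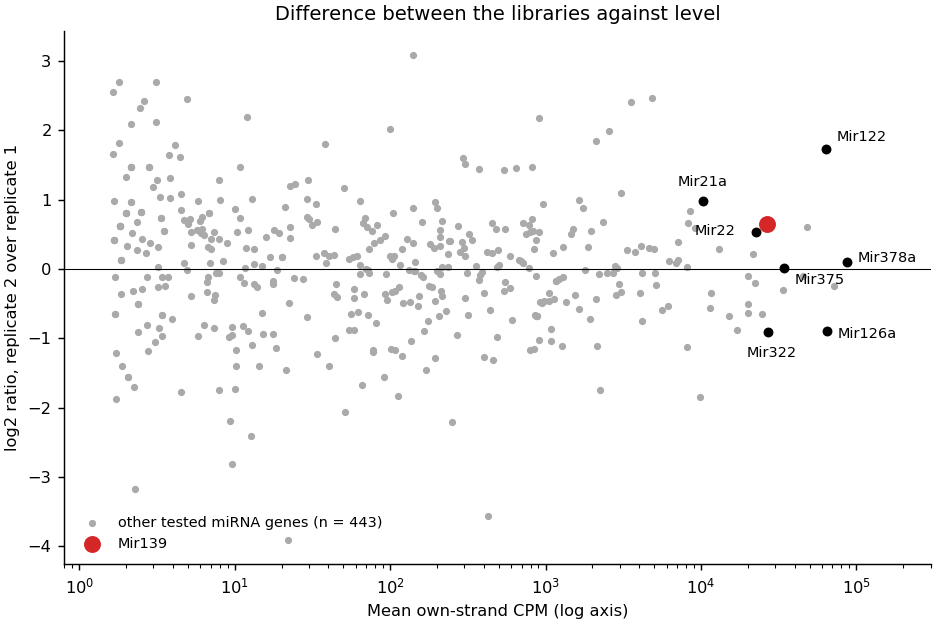
The log2 ratio of replicate 2 over replicate 1 for each of 444 tested genes against its mean own-strand CPM on a log axis, with Mir139 in red and some abundant genes in black. Mir139 lies at 0.65, near Mir22, below Mir122 at 1.73 and Mir21a at 0.98, and above Mir375, Mir322 and Mir126a.

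Markers of other tissues and cell types also moved between the libraries, and their part in the Mir139 ratio was not tested. The liver marker Mir122 had 97850 CPM in replicate 2 and 29424 CPM in replicate 1. The 9 striated muscle markers summed to 3337 CPM in replicate 2, against 929.1 CPM in replicate 1. By the binomial test 3 of 4 tested members were higher in replicate 2, against 28.6% of all tested genes. Nearly all of the muscle sum was Mir206, with 3305 CPM in replicate 2 and 918.5 CPM in replicate 1. Mir133a-2 was at 0 in both, and Mir1a-1, Mir1a-2 and Mir133a-1 had at most 4 counts in either library. Mature miRNAs encoded at several places lose the reads that map to all of them, so the sums of this and the other lists are lower bounds. With Mir122 left out of the totals, Mir139 had 36216 CPM in replicate 2 and 21431 CPM in replicate 1, a log2 ratio of 0.76. The endothelial marker Mir126a went the other way, at 45250 CPM in replicate 2 and 84262 CPM in replicate 1. Of the 10 markers of kidney and other epithelia 7 were higher in replicate 2 and 1 was lower, against 28.6% and 30.4% of all tested genes, and their sum was 1632 CPM in replicate 2, against 1573 CPM in replicate 1.

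Cells of the gland itself and of its blood were marked as well. The 4 neuroendocrine markers, known from cells such as the chromaffin cells of the medulla, summed to 37795 CPM in replicate 2, against 39914 CPM in replicate 1, nearly all of it Mir375, with 3 of 4 lower in replicate 2. The 5 smooth muscle and fibroblast markers summed to 34060 CPM in replicate 2, against 40292 CPM in replicate 1, most of it Mir143. Of 4 tested members 2, Mir145a and Mir214, were higher in replicate 2 and 1, Mir143, was lower. Mir199a-1 was at 0 in both. Leukocyte markers summed to 1294 CPM in replicate 2, against 826.0 CPM in replicate 1, where 1 of 3, Mir150, was higher. Erythroid markers summed to 321.7 CPM in replicate 2, against 719.8 CPM in replicate 1, with 1 of 3 higher in replicate 2 and 2 lower. Beside these counts by the binomial test, 28.6% of all tested genes were higher in replicate 2 and 30.4% were lower. No miRNA of these lists defines the steroid-producing cells of the cortex, so the cell type that the Mir139 counts came from could not be read from them.

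**Figure D4:**
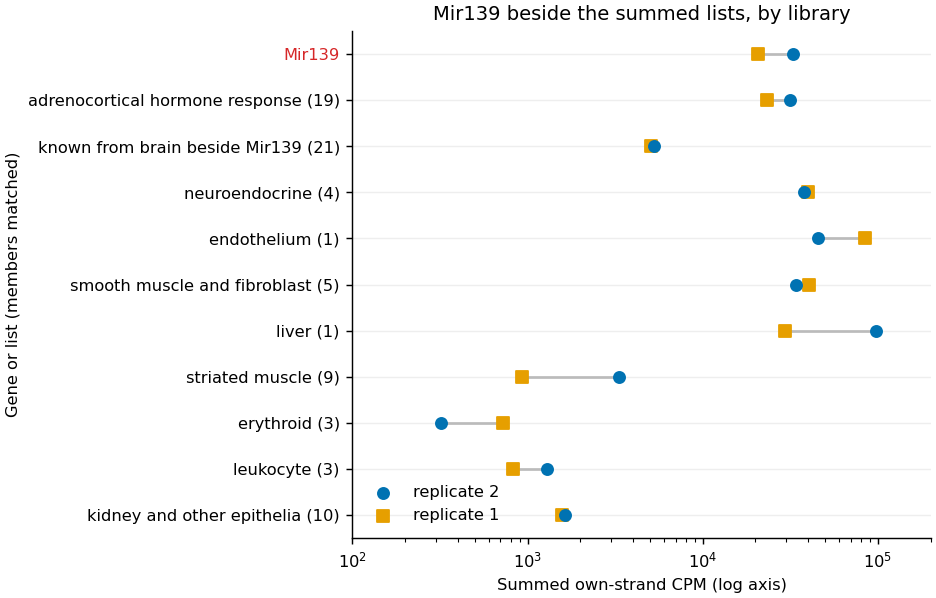
Mir139 and the summed own-strand CPM of each gene list, on a log axis, in replicate 2 (blue circles) and replicate 1 (orange squares), with the number of matched members in parentheses. Mir139 alone lies near the sum of the 19 miRNA genes of adrenocortical hormone response in both libraries, while the liver and striated muscle lists are the most shifted towards replicate 2.

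Set against miRNAs linked to the response of the adrenal cortex to its hormones, Mir139 alone had about as many counts as those assigned to the whole list. The 19 members summed to 31406 CPM in replicate 2, against 23392 CPM in replicate 1, and Mir139 was 1.04 times that sum in replicate 2 and 0.89 times in replicate 1. Reads shared by the copies of miR-125b and of miR-24 are missing from this sum, so these ratios are upper bounds. No member was above Mir139 by mean. The leading member was Mir21a, a widely expressed miRNA gene associated with growth and survival, with 13582 CPM in replicate 2 and 6869 CPM in replicate 1. Mir139 exceeded it 2.41 times in replicate 2 and 3.03 times in replicate 1. Next came Mir125a with 4943 CPM in replicate 2 and 5157 CPM in replicate 1, Mir320 with 2869 CPM and 1788 CPM, and Mir214 with 2088 CPM and 1683 CPM in the same libraries. Of the 19 members, 10 were higher in replicate 2 and 6 were lower by the binomial test, against 28.6% and 30.4% of all tested genes. Their median log2 ratio was 0.31, against 0.07 over all tested genes.

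MiR-139 is also known from brain, and the counts assigned to the other miRNA genes known from brain were lower here. Their 21 genes summed to 5265 CPM in replicate 2, against 5075 CPM in replicate 1. Mir139 was 6.21 times that sum in replicate 2 and 4.10 times in replicate 1, which are upper bounds because miR-9 and miR-124 were nearly missing from the sum. The list was led by Mir342, with 1802 CPM in replicate 2 and 1204 CPM in replicate 1, followed by Mir149, Mir132 and Mir137. Mir9-1, Mir9-2, Mir124a-1 and Mir124a-3, genes with near-identical copies whose reads can map to several places, were at 0 in both libraries, and Mir9-3 and Mir124a-2 had at most 1 count in either. Their levels are uncertain, as is that of Mir199a-1 above. The genes of miR-128, miR-129, miR-138 and miR-218 in this list also come in copies, so their levels can be too low for the same reason. By the binomial test 5 of 15 tested members were higher in replicate 2 and 8 were lower, against 28.6% and 30.4% of all tested genes, with a median log2 ratio of -0.25.

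Among miRNA genes inside introns of protein-coding genes on their own strand, Mir139 ranked 3 by mean level of assigned counts. There were 724 such genes, of which 156 had at least 1 CPM in both libraries, and 28 had at least 1000 CPM in both. A gene that overlapped an exon of any annotated transcript of a host was not counted as intronic. Mir126a in Egfl7, above Mir139 in both libraries, was left out on that ground, so the rank depends on this definition. Of the genes kept, Mir378a in Ppargc1b and Mirlet7g in Wdr82 were above Mir139. In replicate 1 Mir23b, Mir335 in the imprinted gene Mest and Mir26b in Ctdsp1 were above it too, which put Mir139 at rank 6 in replicate 1 and at rank 3 in replicate 2. The intronic genes together held 35.1% of the assigned counts in replicate 2 and 37.3% in replicate 1. Mir139 made up 9.31% of that intronic part in replicate 2 and 5.57% in replicate 1. In this group 37 of 155 tested genes were higher in replicate 2 and 47 were lower, near the 28.6% and 30.4% of all tested genes. Of the intronic genes, 536 had no other counted miRNA gene within 10000 bp, and among these single genes Mir139 came second by mean, after Mirlet7g.

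**Figure D5:**
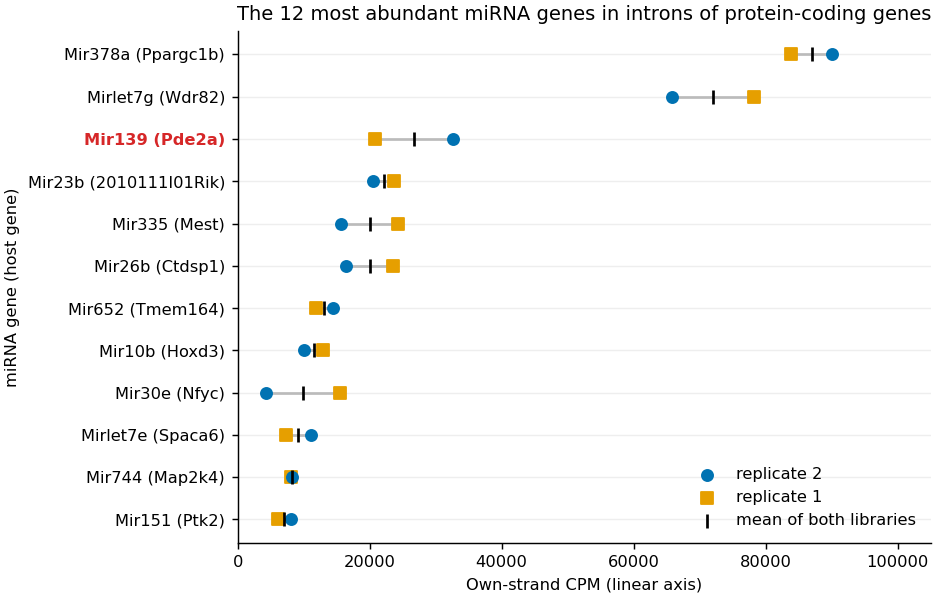
Own-strand CPM in replicate 2 (blue circles) and replicate 1 (orange squares), with the mean (black bars), of the 12 most abundant miRNA genes in introns of protein-coding genes, with the host in parentheses. Mir139 in Pde2a ranks 3 by mean and is higher in replicate 2, while the next 3 genes are higher in replicate 1.

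Other miRNA genes hosted by genes whose symbols begin with Pde had few counts or 0. The 6 such genes were Mir139, Mir582 and Mir1904 in introns of Pde4d, Gm44413 in an intron of Pde1c, and Mir7672 and Mir7225 in exons of Pde12 and Pde4dip. Mir582 had 12 counts in replicate 2 and 22 counts in replicate 1, or 3.90 CPM and 7.74 CPM, and the difference did not pass (adjusted p = 0.0953, exact binomial test). Mir7672 had 4 counts in replicate 2 and 1 in replicate 1. The other 3 were at 0 in both libraries. At least 1 CPM in both libraries was reached by 2 of the 6, Mir139 and Mir582, against 441 of all 2202 genes. The ceiling set by 3 counts was 0.974 CPM for replicate 2, against 1.05 CPM for replicate 1. Pde2a messenger RNA itself was not measured in these libraries of short RNA.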

How the data were processed

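Short RNA of adrenal glands was sequenced in 2 libraries. Raw counts for each miRNA gene, on mm10 with GENCODE M21, are what the authors deposited, per the labels and the file descriptions. Which aligner and counter they ran is not given in the sources used here. The 3 deposited count columns have no header, and their values were read as unstranded, sense and antisense. Unmapped reads were 32.0% of replicate 2 and 26.4% of replicate 1, and reads mapped to several places 25.9% and 27.5%. These, and reads in no gene or in overlapping genes, stayed out of the totals.

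Own-strand CPM was computed over all gene rows. The binomial test (exact, two-sided) took in genes whose summed count reached 10, with a Benjamini-Hochberg threshold of 0.05. It was checked on simulated counts with counting error only. That check cannot show how the test behaves under the spread between these libraries. With 1 group, p-values measure only the difference between these libraries. A chi-square between the libraries came to 793 per degree of freedom, and they were counted as 2 samples. Hosts on the own strand came from GENCODE M21; hairpins were matched by symbol to RefSeq and folded with RNAfold 2.7.2. Named genes were Mir139, 5 on each side by mean, the 5 nearest by log2(CPM + 1), list leaders, Mir122, the highest gene and those in Pde genes. Mirlet7g, Mir23a, Mir26b and the further intronic genes plotted were picked once their values had been seen. The gene and the lists were chosen with earlier results of these data known. Through RefSeq synonyms, the list names Mir497a and Mir124-2 were matched to Mir497 and Mir124a-2. Alternatives were the column without strand, TMM and DESeq2 factors, Mir122 or Mir378a left out, other minimums and pseudocounts, single replicates, and a negative binomial test. Tools were Python 3.11.15 with scipy 1.17.1, pandas 2.3.3, numpy 2.4.6 and matplotlib 3.10.9, and DESeq2 1.42.0 and edgeR 4.0.16 in R 4.3.3.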

Additional observations from a re-analysis of the deposited data

How the results depend on the processing

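Of 33 alternatives of the Mir139 level, rank, share and ratio and of the count of differing genes, 30 stayed within the spread between the libraries, on the same side of the threshold, or within 1.5 times for counts. None reversed. In single replicates the rank was 8 to 15, the level 20800 to 32672 CPM and the share 2.08% to 3.27%. Levels and shares stay within the SD there by construction. The share is the level on another scale, so its alternatives repeat those of the level and add no separate check. Other minimum counts cannot move the log2 ratio of Mir139, which was 0.651 in each. Pseudocounts of 0.1 and 5 hardly move it at counts this large, and it was 0.651 with both. The 30 therefore include alternatives whose outcome was fixed or nearly fixed in advance. The mean level was 32756 CPM without strand and 28823 CPM without Mir122, and between 26592 and 26597 CPM with DESeq2 and TMM factors. The log2 ratio of Mir139 lay between 0.58 and 0.76 over its 9 alternatives. With the exact negative binomial test of edgeR the ratio was 0.58 with an adjusted p of 1, and 2 genes differed in place of 262, since that test adds the spread between these libraries to counting error. A ratio between 2 libraries has no replicate of its own, so leaving out a replicate gives it no value. No paired analysis was possible because the series holds 1 group.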

Other observations

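The messenger RNAs that miR-139-5p is reported to act on, mostly in human tumour cells, were not measured here, but their annotated mouse sequences can be set beside the seed. The reverse complement of the seed, ACTGTAG, was searched on the sense strand of the longest annotated 3′ untranslated region of each of 10 reported target genes, with ACTGTAGA as the longer match that holds it. The shorter match was present in 9 of 10 genes, with Rock2 as the exception in this window, and the longer one in 5 of 10 (Cxcr4, Igf1r, Jun, Ndrg4 and Zeb1). Over 21037 genes with an annotated region the shares were 11.0% and 3.71%. The regions of the 10 genes are long, with a median of 2094 bases against 960.0 bases over all genes. Among the 5065 genes with a region of at least that length the shares were 27.4% and 9.54%. These genes were listed because of reported targeting, so the matches are a description and not a test, and a match is not a shown site.

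The following stretches show the longer match in capitals, 5′ to 3′, from the GENCODE M21 transcripts, with that of Zeb1 not shown. In Cxcr4, a chemokine receptor gene, 2 copies stand end to end. Igf1r encodes a receptor for insulin-like growth factors, Jun a transcription factor of the AP-1 family, and Ndrg4 a member of the N-myc downstream-regulated family.
Cxcr4: tgtaggACTGTAGAACTGTAGAggaaga
Igf1r: cctgttttaatcACTGTAGAaaagcc
Jun: actgcaatagagACTGTAGAttgctt
Ndrg4: aactaatcccttACTGTAGAtagcac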
